A study of Mus musculus with 8 samples.

Results

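The amino acid transporter families are described here in mouse blastocysts: 64 genes of the 22013 in the table, taken by symbol as every member of the solute carrier families Slc1, Slc3, Slc6, Slc7, Slc36, Slc38 and Slc43. Of these 64 genes, 40 had enough counts to be tested between the groups, 21 were detected at lower levels and 3 (Slc6a11, Slc7a12 and Slc7a13) had a count of 0 in every library. The symbol rule also takes in a few genes that are not amino acid carriers: Slc7a6os is the opposite-strand neighbour of Slc7a6, and Slc6a2, Slc6a3 and Slc6a4 carry monoamine transmitters.

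The study sequenced poly(A) RNA from 8 pools of 5 blastocysts each, all wild-type, outbred ICR and made by in vitro fertilisation with oocytes of superovulated females aged 6 to 8 weeks and sperm of males aged 8 to 10 weeks. Embryos of 4 pools grew in KSOM, a simple embryo medium, to which miR-21-5p agomir (50 nM) was added for about 75 h, until they were blastocysts. An agomir is a chemically modified mimic of a microRNA. Embryos of the other 4 pools, the blank control, were cultured in KSOM with vehicle and no oligonucleotide, so an effect of any oligonucleotide cannot be told apart from an effect of this one. The labels put all libraries in a single batch and do not say whether pools came from separate fertilisations or parents, so each p-value covers only how much these pools varied.

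Many amino acid transporters work as exchangers, which swap one amino acid for another, or as symporters, which use a sodium or proton gradient to pull amino acids in. Several members of Slc7 are light chains that reach the cell surface only when joined to a heavy chain of Slc3. A blastocyst takes up amino acids through its outer layer, the trophectoderm, both to build protein and to signal to mTORC1, the kinase complex that couples growth to amino acid supply. System B0,+ (Slc6a14) is known from classical uptake work as a main route for leucine and tryptophan into mouse blastocysts.

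The mature microRNA that the labels name is shown first, since its seed guides its pairing with messages. RefSeq places mouse miR-21a-5p at chr11:86584120-86584141 on the minus strand of GRCm38.p6, and capitals mark its seed, bases 2 to 8. The labels give no agomir sequence, and small RNAs were not measured.
mmu-miR-21a-5p: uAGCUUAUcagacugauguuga
The letters opposite this seed, ATAAGCT, were searched on the sense strand in the longest annotated 3' UTR of each gene (GENCODE M21, GRCm38). They occurred in 961 of 12222 genes tested (7.86%) and in 2 of 40 transporters tested (5.0%). Both transporter matches are shown with the match in capitals, Slc38a6 at chr12:73312920-73312944 and Slc7a2 at chr8:40918307-40918331, both on the plus strand.
Slc38a6: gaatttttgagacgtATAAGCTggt
Slc7a2: ctggtgctctttggcATAAGCTgac
Slc38a6, a sodium-coupled neutral amino acid carrier, was the second most abundant member and is described below. Slc7a2, a cationic amino acid transporter, was near the limit of detection at 0.163 ± 0.107 FPKM in agomir pools and 0.160 ± 0.0770 FPKM in control pools (SD, n = 4 each). For both genes the log2 fold change between groups was smaller than its standard error (SE), so no direction is given. A match of letters is a description and not a site of action.

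Which transporters dominated the blastocyst was read from FPKM, which is scaled to gene length and so can be compared between genes. The 5 highest members were Slc7a6, Slc38a6, Slc3a2, Slc6a8 and Slc38a4, and together they held 73.2% ± 1.18 of the summed transporter FPKM in agomir pools and 73.0% ± 2.88 in control pools (SD, n = 4 each). There was no sharp step below them: the sixth, Slc6a14, averaged 61.7 FPKM over all libraries beside 86.3 FPKM for Slc38a4. The 4 members with a mean of at least 100 FPKM held 65.9% of the sum, 9 members between 10 and 100 FPKM held 28.4%, 14 members between 1 and 10 FPKM held 5.15%, and the 37 members below 1 FPKM shared the rest. By mean FPKM Slc7a6 ranked 402 among all genes in the table, with 98.2% of genes below it.

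**Figure D1:**
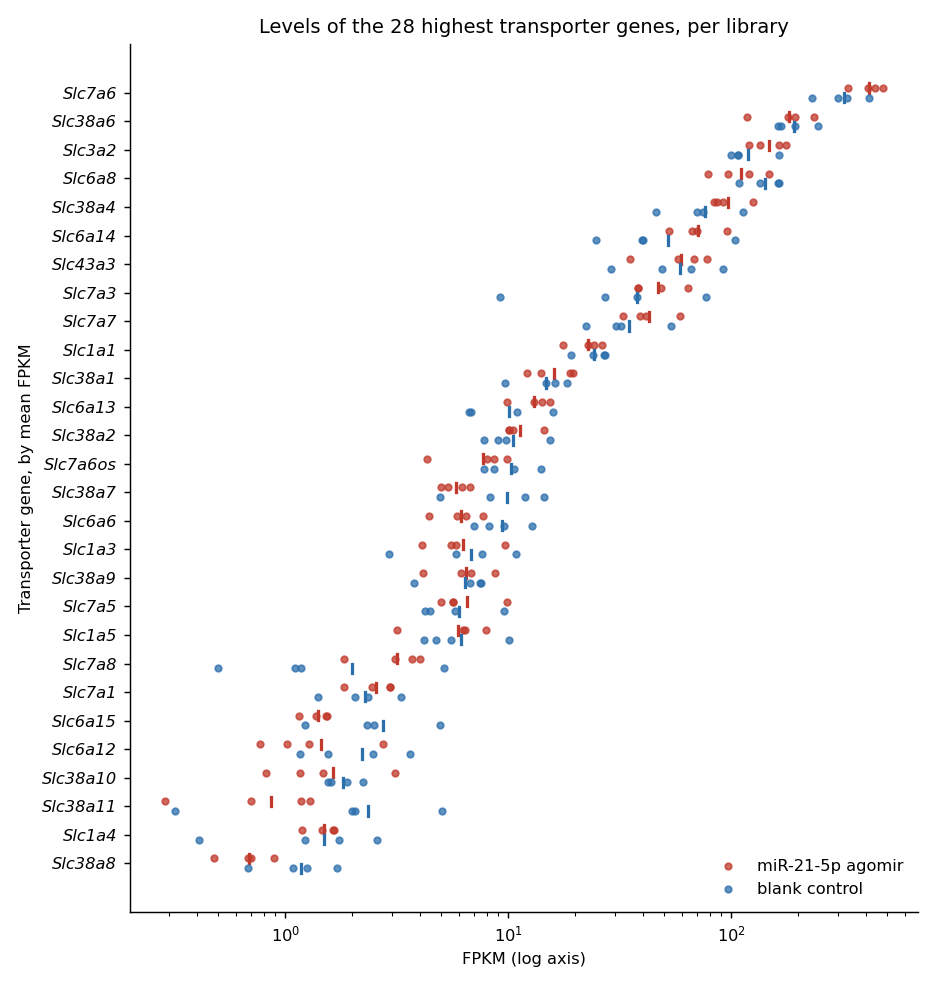
FPKM on a log axis for the 28 highest transporter genes, ordered by mean over all libraries, with 1 point per pool (red, agomir; blue, blank control) and a vertical tick at each group mean. Slc7a6 leads at 333 to 477 FPKM in agomir pools and 229 to 416 FPKM in control pools, and the ranges of the groups overlap for every gene of the 15 highest.

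Slc7a6 (ENSMUSG00000031904, chr8:106168857-106198706 on the plus strand of GRCm38) encodes y+LAT2, a light chain that exports arginine or other cationic amino acids in exchange for neutral ones and sodium. Its level was 477, 442, 333 and 411 FPKM in agomir pools 1 to 4, against 301, 229, 416 and 332 FPKM in control pools 1 to 4. Agomir pools 1 and 2 lay above every control pool, agomir pool 4 just below control pool 3 and agomir pool 3 level with control pool 4, so the groups overlapped. Slc7a6 stood above Slc38a6, the next gene, in 8 of 8 libraries.
Its log2 fold change, agomir over control, was 0.36 (SE 0.19), with an edgeR quasi-likelihood adjusted p of 0.807.

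Slc38a6 (ENSMUSG00000044712, chr12:73286779-73354049, plus strand, GRCm38), the gene with the seed match shown above, had 236, 194, 117 and 179 FPKM in agomir pools, against 245, 168, 161 and 193 FPKM in control pools. Agomir pool 3 was the lowest of all libraries and control pool 1 the highest, and the groups overlapped. The edgeR quasi-likelihood adjusted p was 0.998.

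Slc3a2 (ENSMUSG00000010095, chr19:8706882-8723369, minus strand, GRCm38) encodes CD98, the heavy chain that carries most light chains of Slc7 to the surface. It had 134, 176, 164 and 120 FPKM in agomir pools, against 99.3, 107, 163 and 107 FPKM in control pools. All 4 agomir pools lay above 3 of the control pools, and control pool 3 lay among the agomir pools. Its log2 fold change was 0.44 (SE 0.22), with an edgeR quasi-likelihood adjusted p of 0.793.

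Slc6a8 (chrX:73673150-73682502, plus strand, GRCm38), the creatine carrier, had 147, 120, 78.9 and 96.8 FPKM in agomir pools, against 108, 164, 135 and 162 FPKM in control pools. The log2 fold change was -0.24 (SE 0.20), with an edgeR quasi-likelihood adjusted p of 0.859. Slc3a2 exceeded Slc6a8 in 4 of 8 libraries, so their order did not hold beyond their spread.
Slc38a4 (chr15:96994820-97055956, minus strand, GRCm38), a system A carrier of small neutral amino acids that is known as a paternally expressed imprinted gene, had 125, 85.9, 83.4 and 92.3 FPKM in agomir pools, against 70.4, 46.1, 113 and 74.9 FPKM in control pools. Control pool 2 was the lowest library and the groups overlapped. The log2 fold change was 0.36 (SE 0.25), with an edgeR quasi-likelihood adjusted p of 0.828.

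The members fall into classes by what they carry. Light chains of the Slc3a2 heterodimer held the largest share of the summed transporter FPKM, 36.03% ± 0.955 in agomir pools and 30.7% ± 2.76 in control pools. Slc38 members outside system A followed with 14.98% ± 1.98 in agomir pools and 18.7% ± 4.50 in control pools. Carriers of creatine, taurine, betaine and GABA held 9.99% ± 0.980 in agomir pools and 14.4% ± 4.21 in control pools. Heavy chains held 11.7% ± 3.05 in agomir pools and 10.2% ± 1.56 in control pools, and system A held 9.56% ± 0.519 in agomir pools and 8.57% ± 0.816 in control pools (SD, n = 4 each). The glycine, proton-coupled and Slc3a1-linked classes each held under 1%.

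**Figure D2:**
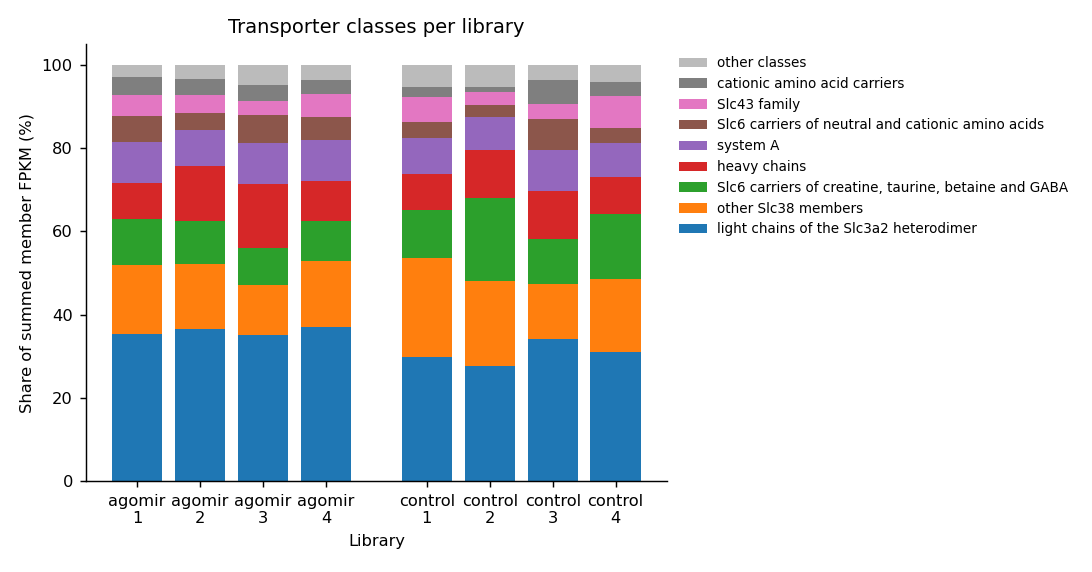
Share of the summed transporter FPKM (%) held by each class of carrier, 1 stacked bar per pool, agomir pools on the left and control pools on the right. The light chain class at the bottom averages 36.03% in agomir pools and 30.7% in control pools, and the share of creatine, taurine, betaine and GABA carriers is widest in control pool 2.

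Among the light chains, Slc7a6 alone made up 87.5%, 89.2%, 88.6% and 89.5% of the summed light chain FPKM in agomir pools, against 89.1%, 89.2%, 85.8% and 89.7% in control pools. Slc7a5 (ENSMUSG00000040010) encodes LAT1, the exchanger of large neutral amino acids that is often taken as the standard partner of Slc3a2. It had 4.97, 9.84, 5.66 and 5.68 FPKM in agomir pools, against 5.78, 4.25, 9.61 and 4.46 FPKM in control pools. One pool of each group was high and the rest were alike, which placed Slc7a5 at rank 19 of the 64 members while its heavy chain was at rank 3. Its log2 fold change was 0.20 (SE 0.29), with an edgeR quasi-likelihood adjusted p of 0.924.

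Slc7a7, which encodes y+LAT1, the close relative of y+LAT2, was the second light chain at 58.9, 41.5, 32.8 and 38.8 FPKM in agomir pools, against 30.4, 22.4, 53.7 and 32.0 FPKM in control pools. Its log2 fold change was 0.36 (SE 0.27), with an edgeR quasi-likelihood adjusted p of 0.837, and in the GENCODE M21 annotation it overlaps Oxa1l on the opposite strand, so that some of its reads could be of that gene. Slc7a8, which encodes LAT2, had 4.01, 1.83, 3.71 and 3.09 FPKM in agomir pools, against 0.50, 1.1, 5.17 and 1.18 FPKM in control pools. Control pool 3 was the highest of all libraries and the other control pools were lower than every agomir pool. The log2 fold change was 0.77 (SE 0.59), with an edgeR quasi-likelihood adjusted p of 0.848.
Slc7a11 encodes xCT, the cystine and glutamate exchanger. It had counts of 3, 1, 5 and 3 in agomir pools, against 7, 19, 9 and 7 in control pools. It was too low to be tested, and every agomir pool lay below every control pool at these counts.

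The start regions of 3 light chains are shown because these genes share 1 heavy chain and yet differ in level, from Slc7a6 at the top through Slc7a7 to Slc7a11 near 0. Each is 250 bases before to 50 after a transcript start annotated in RefSeq (GRCm38.p6), and capitals mark TGATGNAA on either strand, the letters of the amino acid response element that ATF4 and CHOP bind. The windows are chr8:106168604-106168903 on the plus strand for Slc7a6, chr14:54417895-54418194 on the minus strand for Slc7a7 and chr3:50443564-50443863 on the minus strand for Slc7a11. Slc7a6 has 1 other annotated start, with 0 matches. Slc7a7 has 5 annotated starts in all, with 2, 1, 0, 0 and 0 matches, and the window shown is the one with the most. The window with 1 match overlaps the one shown, and its match is the same letters.
Slc7a6: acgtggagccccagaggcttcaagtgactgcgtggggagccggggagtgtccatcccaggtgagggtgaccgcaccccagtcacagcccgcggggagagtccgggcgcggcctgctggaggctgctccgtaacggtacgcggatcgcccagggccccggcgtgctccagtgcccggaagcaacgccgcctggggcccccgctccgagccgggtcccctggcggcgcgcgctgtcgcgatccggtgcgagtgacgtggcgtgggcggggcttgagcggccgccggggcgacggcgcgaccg
Slc7a7: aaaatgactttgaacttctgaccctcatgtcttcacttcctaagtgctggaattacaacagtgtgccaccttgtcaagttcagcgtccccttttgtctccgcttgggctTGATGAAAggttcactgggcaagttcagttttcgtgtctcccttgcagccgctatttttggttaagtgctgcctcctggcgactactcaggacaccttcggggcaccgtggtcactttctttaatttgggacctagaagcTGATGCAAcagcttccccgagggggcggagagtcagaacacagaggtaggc
Slc7a11: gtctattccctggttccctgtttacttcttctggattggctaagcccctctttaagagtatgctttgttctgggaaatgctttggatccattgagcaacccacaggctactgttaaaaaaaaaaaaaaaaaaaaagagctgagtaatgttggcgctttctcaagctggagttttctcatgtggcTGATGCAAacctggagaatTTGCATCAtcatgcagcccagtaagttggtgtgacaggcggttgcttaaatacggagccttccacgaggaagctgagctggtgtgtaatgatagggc
The Slc7a7 and Slc7a11 windows shown hold 2 matches each and the Slc7a6 window shown holds none. The light chains Slc7a8 and Slc7a10, not shown, have 0 matches and low means of 2.57 and 0.27 FPKM over all libraries. The light chain Slc7a5 had no matched promoter and was not searched. Over all annotated starts, 4 of the 46 transporters with a promoter in the table had a match (8.70%: Slc1a4, Slc6a21, Slc7a7 and Slc7a11), against 4.51% of 27025 genes. The E-box letters CACGTG, a palindrome, stood in 9 of the 46 (19.6%), against 8.09% of the 27025 genes. Of these 9, Slc38a7 had a mean of 7.84 FPKM over all libraries. The others, Slc1a6, Slc1a7, Slc36a1, Slc38a5, Slc43a1, Slc6a3, Slc6a16 and Slc7a14, each had a mean below 1 FPKM. These counts describe letters in a window and not binding.

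Next, 3 ratios of FPKM within a library were compared: a heavy to a light chain, a light chain to another, and a system A carrier to another. The test was a 2-sided exact permutation test over the 70 assignments of the 8 libraries, which can give no p below 0.0286. The ratio of Slc3a2 to Slc7a5 was 23.7 ± 5.14 in agomir pools and 20.8 ± 4.35 in control pools (SD, n = 4 each; exact permutation p = 0.429, 0.643 after Benjamini-Hochberg adjustment over the 3 ratios). The ratio of Slc7a6 to Slc7a5 was 68.0 ± 21.8 in agomir pools and 55.9 ± 13.2 in control pools (exact permutation p = 0.371, adjusted 0.643). The ratio of Slc38a1 to Slc38a2 was 1.44 ± 0.329 in agomir pools and 1.56 ± 0.640 in control pools (exact permutation p = 1.0). Summed light chain FPKM was 4.07, 2.82, 2.29 and 3.84 times the level of Slc3a2 in agomir pools, against 3.40, 2.40, 2.97 and 3.47 times in control pools. At the deposited lengths, light chain transcripts outnumbered the heavy chain in every library.

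The length behind an FPKM bears on this order. Dividing count by FPKM and library total gave a length of 3434 bases for Slc6a14 and a median of 3800 bases for Slc1a1, each within 1 base of the longest coding transcript in GENCODE M21. For Slc7a6 the same calculation gave 1171 to 1470 bases, with a median of 1248, or 33.3% of its longest coding transcript of 3750 bases, and it gave 56.7% for Slc38a6 and 53.6% for Slc3a2. With each member's longest coding transcript in place of the deposited length, Slc7a6 kept the first rank, with FPKM recomputed at that length of 135 ± 23.9 in agomir pools and 112 ± 19.3 in control pools (SD, n = 4 each). Its lead was then smaller, and Slc38a6 lay above it in control pools 1 and 2. The 5 highest members then held 61.2%, with Slc6a14 in place of Slc38a4. The size of the ratios to Slc7a5 and the share of Slc7a6 among light chains also depend on these lengths. The length behind the FPKM of Slc7a5 was 100% of its longest coding transcript. At that transcript length the means over all libraries were 123 for Slc7a6, 71.9 for Slc3a2 and 6.28 for Slc7a5, so both ratios were smaller than with deposited FPKM. In CPM, which are not scaled to length, Slc7a6 had 523 ± 61.0 in agomir pools and 407 ± 89.6 in control pools, and Slc38a6 had 407 ± 76.3 in agomir pools and 409 ± 93.4 in control pools (SD, n = 4 each). By CPM the means of the 2 genes were thus level in control pools, and Slc38a6 lay above Slc7a6 in control pools 1 and 2.

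Slc7a6 also took a larger part of the transporter total in the agomir pools. Its share of the summed transporter FPKM was 30.9%, 32.6%, 31.1% and 33.3% in agomir pools, against 26.5%, 24.7%, 29.4% and 27.7% in control pools. Its share of the summed transporter counts was 18.6%, 19.9%, 17.6% and 19.1% in agomir pools, against 16.3%, 15.9%, 16.6% and 16.8% in control pools. Neither share overlapped between the groups. The shares of Slc6a6 were also apart, lower in every agomir pool than in every control pool, though only narrowly in counts. A split of this kind is thus not particular to Slc7a6, and how many other members show it was not counted. This measure was chosen after the values had been seen and gets no test. The length behind its FPKM was 1246, 1251, 1171 and 1181 bases in agomir pools, against 1331, 1470, 1231 and 1297 bases in control pools, and the count share does not use this length.

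**Figure D3:**
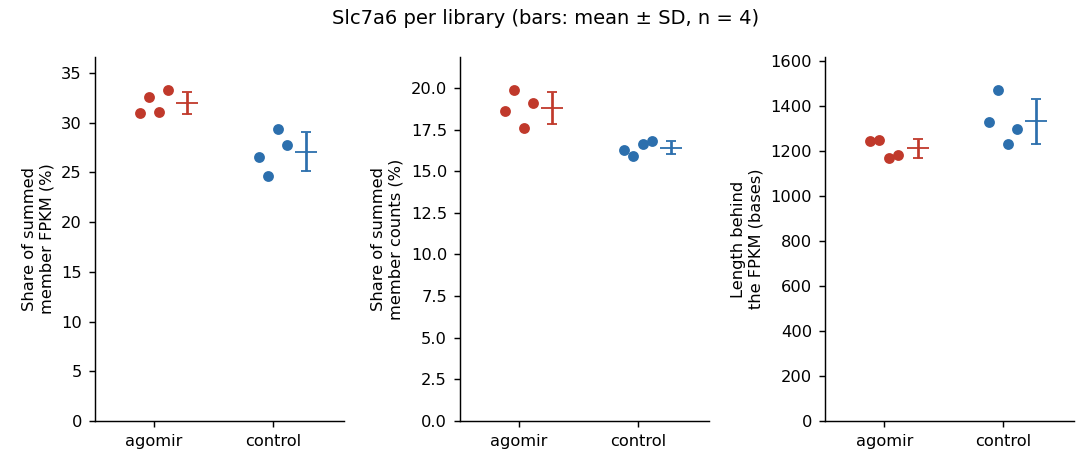
Slc7a6 in each pool, agomir left and blank control right: its share of summed transporter FPKM (%), its share of summed transporter counts (%) and the length behind its FPKM (bases), with mean ± SD over 4 pools beside the points. Both shares are higher in all 4 agomir pools (FPKM share 32.0% ± 1.13) than in all 4 control pools (27.1% ± 1.99), while the lengths overlap.

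Within Slc6, the carriers of neutral and cationic amino acids were led by Slc6a14, the sodium-driven B0,+ carrier, which takes up nearly all of these amino acids. It had 96.1, 52.3, 70.1 and 66.4 FPKM in agomir pools, against 39.7, 24.7, 104 and 40.1 FPKM in control pools. Every agomir pool lay above 3 of the control pools, and control pool 3 lay above them all. The log2 fold change was 0.55 (SE 0.39), with an edgeR quasi-likelihood adjusted p of 0.834. Slc6a19, the B0 carrier of intestine and kidney, was detected in agomir pool 3 with a count of 7 and in control pool 1 with a count of 4, and had a count of 0 in the other 6 libraries.

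Among the cationic amino acid carriers of Slc7 that need no heavy chain, Slc7a3, which encodes CAT-3, had the highest mean FPKM. It had 64.2, 48.2, 38.1 and 38.1 FPKM in agomir pools, against 27.1, 9.21, 76.9 and 37.96 FPKM in control pools. Control pools held both the lowest and the highest value. Slc7a1, the widely expressed CAT-1, was far lower at 1.84, 2.96, 2.94 and 2.45 FPKM in agomir pools, against 2.05, 2.35, 3.32 and 1.40 FPKM in control pools. For both genes the log2 fold change was under its SE.

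Among acidic amino acid carriers Slc1a1, which encodes EAAT3, was the main one and the steadiest of the 15 highest members, at 24.2, 17.7, 26.4 and 22.7 FPKM in agomir pools, against 26.8, 19.0, 27.1 and 24.1 FPKM in control pools. Slc1a3, the carrier also known as GLAST, had 4.11, 9.68, 5.81 and 5.54 FPKM in agomir pools, against 10.9, 7.64, 2.91 and 5.80 FPKM in control pools. Slc1a5, the ASCT2 exchanger of glutamine and other small neutral amino acids, had 3.17, 6.37, 6.27 and 7.94 FPKM in agomir pools, against 5.55, 4.73, 10.1 and 4.19 FPKM in control pools. Slc1a4, its relative ASCT1, averaged 1.49 ± 0.218 FPKM in agomir pools and 1.49 ± 0.912 FPKM in control pools (SD, n = 4 each). The differences of these 4 genes were under their SE.

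In system A, Slc38a1 and Slc38a2 stood well below Slc38a4. Slc38a1 had 14.0, 18.9, 12.1 and 19.4 FPKM in agomir pools, against 16.2, 18.3, 9.64 and 14.8 FPKM in control pools, with a log2 fold change of 0.22 (SE 0.22). Slc38a2, the member known to rise when amino acids are scarce, had 10.5, 14.5, 10.1 and 10.1 FPKM in agomir pools, against 9.73, 8.99, 15.4 and 7.76 FPKM in control pools, a difference under its SE. The groups overlapped for both genes, and the edgeR quasi-likelihood adjusted p of Slc38a1 was 0.881.

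Lysosomal and proton-coupled members were low. Slc38a9, the arginine-sensing lysosomal carrier that signals to mTORC1, had 8.73, 6.78, 4.13 and 6.16 FPKM in agomir pools, against 7.56, 3.78, 6.75 and 7.45 FPKM in control pools. The proton-coupled carrier Slc36a1 averaged 0.478 ± 0.199 FPKM in agomir pools and 0.575 ± 0.0580 FPKM in control pools, and Slc36a4 0.265 ± 0.185 FPKM in agomir pools and 0.195 ± 0.148 FPKM in control pools (SD, n = 4 each). None of these 3 differed by more than its SE.

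The members named next include some that carry compounds outside the protein amino acids. Slc43a3, which belongs to a family of amino acid carriers but is known as a purine nucleobase transporter, had 78.1, 58.0, 35.1 and 67.7 FPKM in agomir pools, against 66.1, 29.0, 49.1 and 91.6 FPKM in control pools. Its relatives are LAT3 and LAT4, carriers of large neutral amino acids. Slc43a1 (LAT3) averaged 0.345 ± 0.352 FPKM in agomir pools and 0.450 ± 0.394 FPKM in control pools, and Slc43a2 (LAT4) averaged 0.455 ± 0.109 FPKM in agomir pools and 0.495 ± 0.286 FPKM in control pools (SD, n = 4 each). For these 3 genes the difference was under its SE. Slc6a13, a carrier of GABA and taurine, had 14.2, 13.0, 9.88 and 15.3 FPKM in agomir pools, against 10.9, 6.84, 6.69 and 16.0 FPKM in control pools, with a log2 fold change of 0.47 (SE 0.30). Slc6a9, the GlyT1 glycine carrier of early cleavage embryos, had counts of 8, 38, 10 and 19 in agomir pools, against 5, 2, 29 and 6 in control pools, with a log2 fold change of 0.81 (SE 0.75).
Slc3a1 and Slc7a9 form the heavy and light chain pair of kidney and intestine. Slc3a1 averaged 0.430 ± 0.164 FPKM in agomir pools and 0.558 ± 0.526 FPKM in control pools, and Slc7a9 averaged 0.818 ± 0.434 FPKM in agomir pools and 0.945 ± 0.448 FPKM in control pools (SD, n = 4 each), both differences under their SE. In the GENCODE M21 annotation Slc3a1 overlaps Prepl on the opposite strand. Prepl averaged 7.19 FPKM over all libraries, so some reads counted for Slc3a1 could be of Prepl. Slc7a6os, the neighbour that is no carrier, averaged 7.73 ± 2.41 FPKM in agomir pools and 10.3 ± 2.76 FPKM in control pools, with a log2 fold change of -0.28 (SE 0.27).

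Between agomir and control pools, no transporter passed the adjusted threshold of 0.05 in edgeR's quasi-likelihood test (0 of 40), and over all 12366 genes tested the test called 0% (0 genes; smallest adjusted p 0.299). At an unadjusted p under 0.05 there were 2 of 40 transporters (5.0%), Slc6a6 and Slc38a7, both lower in agomir pools, against a background of 6.38% of all genes (2.64% higher and 3.74% lower), so the share of transporters was near the background. Their smallest adjusted p was 0.680. DESeq2 called 35 genes, of them 0 transporters.
Which transporters fell under this unadjusted p, and in which direction, depended on the test. DESeq2 gave 4 of the 60 members with a p, all lower in agomir pools (Slc6a6, Slc38a7, Slc38a11 and Slc7a4), against a background of 5.85%. Slc7a4 was too low for the edgeR test, with counts of 0, 0, 1 and 1 in agomir pools, against 6, 9, 11 and 0 in control pools. limma-voom with quality weights gave 5 of 40, against a background of 8.37%. Of these 5, 4 were higher (Slc3a2, Slc7a6, Slc7a8 and Slc6a16) and 1 lower (Slc7a14), and neither Slc6a6 nor Slc38a7 was among them. Slc6a16 was near the floor, with counts of 7, 28, 12 and 24 in agomir pools, against 0, 0, 1 and 22 in control pools. In the edgeR fit the mean was higher in agomir pools for 21 and lower for 19 of the 40, with a median log2 fold change of 0.02 beside 0.0048 over all genes tested.

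Slc6a6, the taurine carrier, had 38.8, 43.8, 31.2 and 40.3 CPM in agomir pools, against 48.0, 65.7, 57.9 and 45.0 CPM in control pools. Every agomir pool lay below every control pool in CPM, the only tested transporter of which this held (1 of 40, or 2.5%), against 3.89% of all genes tested (1.42% higher and 2.47% lower in agomir pools). In FPKM the groups overlapped, at 6.43, 7.74, 4.43 and 5.91 in agomir pools, against 8.17, 12.8, 9.55 and 7.03 in control pools. The log2 fold change was -0.49 (SE 0.18), with an edgeR quasi-likelihood p of 0.0203 and an adjusted p of 0.680.
Slc38a7, a carrier known to export glutamine and asparagine from lysosomes, had 22.0, 19.2, 18.8 and 19.8 CPM in agomir pools, against 26.0, 42.3, 38.8 and 16.9 CPM in control pools. The agomir pools lay close together and control pool 4 lay below them all. The log2 fold change was -0.63 (SE 0.26), with an edgeR quasi-likelihood p of 0.0320 and an adjusted p of 0.746.

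The count of 2 depended on single libraries. Without control pool 3, 10 of 41 transporters had an unadjusted p under 0.05, 9 of them higher and 1 lower in agomir pools, against a background of 8.27%. The 10 were Slc3a2, Slc7a3, Slc7a6, Slc7a7, Slc7a8, Slc38a2, Slc38a4, Slc6a9, Slc6a14 and Slc6a15. The smallest adjusted p among them was 0.263 in edgeR's quasi-likelihood test, so that none was called there either. In that fit the log2 fold change of Slc7a8 was 1.90, that of Slc6a14 was 1.16 and that of Slc3a2 was 0.66. The count was 4 without control pool 4 (background 6.11%), 1 without control pool 2 (6.24%) or agomir pool 4 (6.43%), and 0 without agomir pool 3 (6.76%). It was 2 without control pool 1 (4.41%) or agomir pool 1 (6.00%), again Slc6a6 and Slc38a7. Without agomir pool 2 (6.09%) the 2 were Slc6a6 and Slc38a11, and Slc38a11 was also the 1 without control pool 2. Slc38a11, named here after its values were seen, had 0.70, 1.29, 0.29 and 1.18 FPKM in agomir pools, against 5.02, 0.32, 2.00 and 2.06 FPKM in control pools, with an edgeR quasi-likelihood p of 0.0548 and an adjusted p of 0.792 over all 8 libraries.

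**Figure D4:**
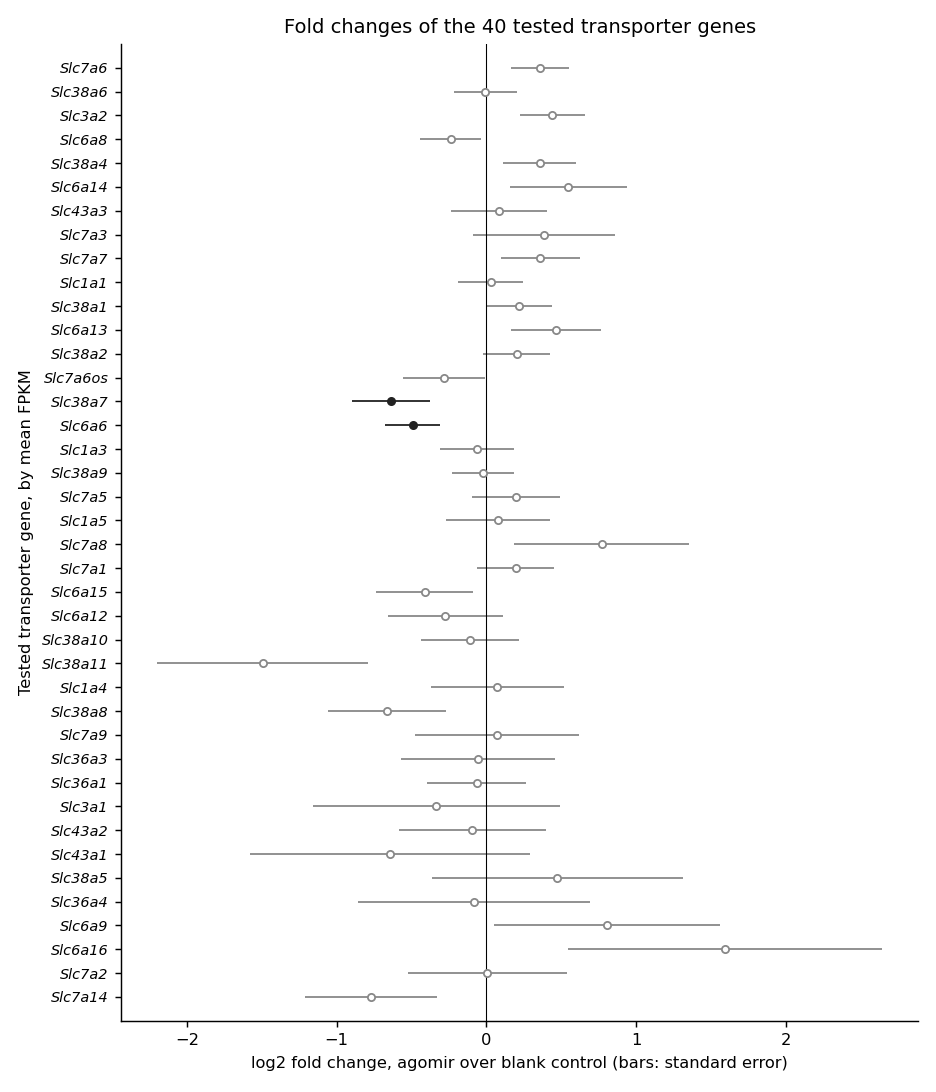
Log2 fold change, agomir over blank control, for the 40 tested transporter genes ordered by mean FPKM, with bars of 1 SE and filled points for an unadjusted p under 0.05. The 2 filled points, Slc38a7 at -0.63 and Slc6a6 at -0.49, lie to the left, and no gene passes the adjusted threshold.

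Single libraries held the extremes of many transporters. Of the 15 highest members, 6 were lowest in control pool 2 (Slc7a6, Slc38a4, Slc6a14, Slc43a3, Slc7a3 and Slc7a7) and 3 were highest there (Slc6a8, Slc7a6os and Slc38a7), while control pool 3 was the highest library for 4. In a principal component analysis of all genes, component 1 (25.0% of variance) set control pool 2 apart and component 2 (21.9%) set agomir pool 3 apart. Leaving both out gave 1 transporter of 41 at an unadjusted p under 0.05, against a background of 6.13%. Control pool 4 had nearly no Y-linked transcript, with 0.894 CPM of Ddx3y and 0.695 CPM of Eif2s3y, and Slc6a8, Slc6a14, Slc7a3 and Slc38a5 are X-linked. Agomir pool 3 had the next lowest Y-linked levels, with 23.1 CPM of Ddx3y and 2.48 CPM of Uty. In control pool 4 Slc6a8 was 162 FPKM, close to the 164 FPKM of control pool 2. The other X-linked members were not highest there. Slc6a14 was 40.1 and Slc7a3 37.96 FPKM, against 104 and 76.9 FPKM in control pool 3, and Slc38a5 was 0.31 FPKM. The part of the sex make-up in these values was not tested. Total counts ran from 12246102 to 23147449 per library.

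Markers of the cell types of the pools were set beside the transporters. All 11 trophectoderm markers had higher means in agomir pools, with a median log2 fold change of 0.59. Of the 11, 0 were called in edgeR's quasi-likelihood test (smallest adjusted p 0.678), 6 had an unadjusted p under 0.05 (54.5%, beside 6.38% of all genes) and 1 had groups that did not overlap. Their summed level was 4239, 3765, 8702 and 3823 CPM in agomir pools 1 to 4, against 2919, 4483, 3654 and 3284 CPM in control pools 1 to 4. Agomir pool 3 stood alone and the other agomir pools lay within the range of the control pools. Without agomir pool 3 the means of 9 were higher and of 2 lower, 2 had an unadjusted p under 0.05 and the median was 0.40. The count at that p was also 2 without control pool 1 and 3 without control pool 4 or agomir pool 2. It was 4 without agomir pool 1, 5 without control pool 2 or agomir pool 4, and 7 without control pool 3. Of 8 inner cell mass markers 1 had a higher and 7 a lower mean in agomir pools, with sums of 163 to 267 CPM, against 196 to 317 CPM in control pools. Primitive endoderm markers summed to 1434 to 1689 CPM in agomir pools, against 1064 to 1603 CPM in control pools. Markers of cumulus cells were near the floor at 3.51 to 15.4 CPM in agomir pools, against 8.24 to 19.1 CPM in control pools, with Cyp19a1 at 0 in all. Oocyte markers summed to 6.05 to 8.79 CPM in agomir pools, against 2.97 to 11.9 CPM in control pools, and blood cell markers to 13.6 to 22.3 CPM in agomir pools, against 20.01 to 47.5 CPM in control pools, with Csf1r and Hbb-bs at 0 in all. The part of these levels in the transporter values was not tested, and in pooled embryos fewer cells of a type and less RNA per cell cannot be told apart.

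Genes that sense or respond to amino acid supply were set beside the transporters. Of 39 genes of amino acid sensing and mTORC1 tested, 0 were called, and at an unadjusted p under 0.05 there were 0 higher and 2 lower in agomir pools (5.13%, beside 6.38% of all genes). These were Sesn1, a sestrin of the leucine-sensing branch, at 2.26 ± 0.504 FPKM in agomir pools and 3.72 ± 0.784 FPKM in control pools, and Flcn, a GAP of the Rag pathway, at 3.82 ± 0.710 FPKM in agomir pools and 6.31 ± 2.06 FPKM in control pools (SD, n = 4 each). The highest of the list were Lamtor5, a Ragulator subunit, at 345 ± 69.0 FPKM in agomir pools and 406 ± 42.5 FPKM in control pools, and Eif4ebp1, a target of mTORC1, at 337 ± 40.6 FPKM in agomir pools and 309 ± 94.9 FPKM in control pools.

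Of 29 genes of the GCN2 and ATF4 response tested, 0 were called and 2 had an unadjusted p under 0.05, Pycr1 (higher in agomir pools) and Vldlr (lower), a share of 6.90% beside 6.38% of all genes. Means were higher for 23 and lower for 6, beside 6262 higher and 6104 lower over all genes, with a median log2 fold change of 0.27 beside 0.0048 over all genes. Without agomir pool 3 the means were higher for 17 and lower for 12, with a median of 0.09. At an unadjusted p under 0.05 there were 9 higher and 1 lower without control pool 3, 5 higher and 1 lower without agomir pool 1 and 4 higher and 2 lower without agomir pool 4, while 1 gene was left without control pool 1 or control pool 4. Pycr1, an enzyme of proline synthesis, had 14.0 ± 5.05 FPKM in agomir pools and 8.61 ± 2.91 FPKM in control pools, and Vldlr, a lipoprotein receptor, had 0.555 ± 0.306 FPKM in agomir pools and 1.23 ± 0.386 FPKM in control pools. Asns, which makes asparagine and is a standard ATF4 target, had 104, 157, 171 and 165 FPKM in agomir pools, against 115, 86.6, 217 and 85.4 FPKM in control pools. Control pool 3 was the highest library for Asns, as it was for Slc38a2 and Slc6a14.

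Of 18 other amino acid and peptide carriers tested, 0 were called and 2 had an unadjusted p under 0.05 (11.1%, beside 6.38% of all genes), both lower in agomir pools: Sfxn3, a mitochondrial serine carrier, at 0.535 ± 0.265 FPKM in agomir pools and 1.37 ± 0.627 FPKM in control pools, and Slc25a13, a mitochondrial aspartate and glutamate carrier, at 6.29 ± 1.06 FPKM in agomir pools and 9.68 ± 2.59 FPKM in control pools. Slc15a2, the PEPT2 carrier of small peptides, had 519 ± 164 FPKM in agomir pools and 472 ± 206 FPKM in control pools, a higher mean than any of the 64 members (SD, n = 4 each).
Of 13 partner and trafficking genes tested, 3 had an unadjusted p under 0.05 with higher means in agomir pools (23.1%, beside 6.38% of all genes) and 0 were called. They were the ubiquitin ligases Rnf5, at 97.3 ± 15.1 FPKM in agomir pools and 67.2 ± 14.8 FPKM in control pools, and Nedd4l, at 22.3 ± 3.27 FPKM in agomir pools and 18.3 ± 4.37 FPKM in control pools, and the scaffold Pdzk1, at 20.8 ± 12.3 FPKM in agomir pools and 11.6 ± 4.00 FPKM in control pools. Of 29 enzymes of glutamine, glutathione and taurine metabolism tested, 0 were called and 2 had an unadjusted p under 0.05 (6.90%, near the 6.38% of all genes). Got1, an aspartate aminotransferase, had 74.7 ± 7.81 FPKM in agomir pools and 61.3 ± 4.61 FPKM in control pools, and Gclm, the modifier subunit of glutathione synthesis, had 8.80 ± 3.72 FPKM in agomir pools and 11.4 ± 3.40 FPKM in control pools.
With each library left out in turn, the count at an unadjusted p under 0.05 ran from 0 (without control pool 1 or agomir pool 4) to 5 (without control pool 3) for amino acid sensing and mTORC1. It ran from 1 to 2 for the other carriers, from 1 (without agomir pool 3) to 3 for partners, and from 1 (without control pool 1) to 4 (without control pool 3 or agomir pool 3) for the enzymes.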

How the data were processed

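Poly(A) RNA of 8 pools of blastocysts, 4 per group, was compared. Per the file headers, the table holds counts and FPKM for 22013 genes. RSEM, HISAT2 2.1.0, StringTie 1.3.1, fastp 0.18.0, DESeq2 1.36.0 and the build GRCm39 are named per the submitters' processing notes. Not given in the sources used here is the annotation or any use of strand. The deposited counts were treated like RSEM expected counts, since 1212 of 176104 values were not whole, and were rounded. The deposited FPKM values, scaled by the authors to length and library total, served for levels between genes.

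Low genes were dropped by filterByExpr (at least 10 counts, at least 15 in total) and tested with edgeR 4.0.16 (TMM, robust quasi-likelihood, no covariate, R 4.3.3) with Benjamini-Hochberg adjustment over 12366 genes. The SE is the log2 fold change divided by the square root of F. CPM are counts scaled to a common TMM-adjusted total. Alternatives were DESeq2 1.42.0, limma 3.58.1 on voom weights or on log2(FPKM + 1) and log2(FPKM + 0.1), other scalings and filters, a replicate block and each library left out.

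Members named are the 15 highest by mean FPKM, those with an unadjusted p under 0.05 or with groups apart, and a list of well-known carriers. Fold changes are printed where they reach their SE, and for Slc7a5. Members and lists were chosen with earlier results of these data known. Sequences are from RefSeq (GRCm38.p6) and GENCODE M21 (GRCm38), another build than that of the files, and 46 of the 64 members matched in the promoter table. Coordinates are of GRCm38 throughout.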

Additional observations from a re-analysis of the deposited data

Results flagged for a closer look

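In each group of 4 pools a value was picked out where its gap to the nearest other pool over the group's whole range was above Dixon's critical value for 4 values, which chance does in about 1 in 20 groups, and 76 groups were examined. Slc3a2 was 163 FPKM in control pool 3, where the other control pools lay between 99.3 and 107 FPKM. Slc7a8 was 5.17 FPKM in the same pool, where the others lay between 0.50 and 1.18 FPKM. Slc38a2 was 14.5 FPKM in agomir pool 2, where the other agomir pools lay between 10.1 and 10.5 FPKM, and Slc7a5 was 9.84 FPKM in the same pool, where the others lay between 4.97 and 5.68 FPKM. The 5 highest transporters held 75.0% of the transporter FPKM in agomir pool 2, where the other agomir pools lay between 72.6% and 72.7%. Slc6a19 was 0.31 FPKM in agomir pool 3 and 0.08 FPKM in control pool 1, and was listed at 0 in the other pools of each group.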

How the results depend on the processing

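No transporter was called under any of the 18 alternatives to the test, and the 14 fold changes printed with a value kept their sign in each one they could be computed in, while 13 of the 17 named members whose difference was under its SE changed sign in at least 1. Over all genes, DESeq2 called 35 (3 higher and 32 lower in agomir pools) where edgeR called 0, and edgeR called 0 to 1 when each library was left out, the 1 without control pool 4. Library totals without TMM moved the median log2 fold change of all genes to -0.11. The share held by the 5 highest transporters was 63.4% in CPM, 61.2% with the longest coding transcript as length and 68.7% without Slc7a6, the last 2 chosen after seeing the data, and the 10 highest held 91.0%. It was 72.6% to 73.6% with each library left out. The Slc38a1 to Slc38a2 difference changed sign in counts (-0.020 on the log2 scale) and ran from -0.39 to 0.17 with each library left out, negative without control pool 3 or agomir pool 4, and was 0.25 without control pool 2 and agomir pool 3. The difference ran from 0.08 to 0.31 for Slc3a2 to Slc7a5 and from 0.07 to 0.44 for Slc7a6 to Slc7a5. With the replicate block, 0 genes and 0 transporters were called and 6 transporters of 40 had an unadjusted p under 0.05 (5 higher and 1 lower in agomir pools, beside 5.71% of all genes), but the numbers did not pair the pools: correlations of same-numbered pools were -0.067, -0.057, -0.14 and 0.12, and only agomir pool 4 correlated best with its own number. With 4 pools of 5 embryos a group, a change within the spread between pools was not detectable.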
